A study of Mus musculus with 6 samples.

Results

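HN9.10e is an immortalized line of mouse embryonic hippocampal neurons, and the miRNAs described here are those carried by the exosomes that untreated cells of the line released into their medium. Of the 6 small RNA libraries of the series, 3 came from untreated cells and make up the data used here, and the others came from cells given ceramide, a sphingolipid, and are not compared here. The untreated cells were wild type, carried no transgene or added agent according to the labels, and grew in DMEM with 10% fetal bovine serum. Exosomes were taken from the medium at 48 h by filtration, concentration and precipitation with a kit, and their RNA was made into libraries with a miRNA kit and sequenced. All rows of the count table with a count in an untreated library were taken as members, which gave 976 of 1973 rows. A row stands for a miRNA hairpin gene, so both mature arms of a hairpin share a single count. The group is 1 cell line. The study calls the libraries biological replicates, but neither its methods nor the labels say what was replicated, such as the culture or the exosome preparation, so the spread given below is that between these 3 libraries. Replicate 1 was labelled lane 1 in its file label, and replicates 2 and 3 were labelled lane 4. Serum carries exosomes of its own, and a bovine read identical to a mouse miRNA cannot be told apart from a mouse read; the share of such reads was not tested.

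miRNAs are small RNAs, cut from hairpin precursors by Drosha and Dicer, that guide Argonaute proteins to messenger RNAs. Pairing rests mainly on the seed, bases 2 to 8 of the mature miRNA, so that miRNAs with the same seed form a family with overlapping targets. Exosomes are small vesicles that form inside endosomal compartments and are released when these fuse with the cell membrane, and they carry miRNAs that can be taken up by other cells. In the nervous system they pass between neurons and glia, and let-7, miR-9, miR-124 and miR-125 are among the miRNAs best known for a part in neuronal differentiation.

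The sequences of the miRNAs that made up most of the cargo are given here because miRNAs of the families below mostly share a seed. They were taken from RefSeq (GRCm38.p6), are written 5′ to 3′, and the capitals mark the seed. Where a hairpin gives 2 mature miRNAs, the arm generally regarded as its main product is shown for the conserved miRNAs, since the rows do not separate the arms.
miR-16-5p: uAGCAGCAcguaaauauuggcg
miR-15b-5p: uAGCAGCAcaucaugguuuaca
miR-322-5p: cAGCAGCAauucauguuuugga
let-7b-5p: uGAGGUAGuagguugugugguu
let-7c-5p: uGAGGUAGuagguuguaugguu
let-7i-5p: uGAGGUAGuaguuugugcuguu
miR-21a-5p: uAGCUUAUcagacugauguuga
miR-93-5p: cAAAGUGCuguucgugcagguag
miR-20a-5p: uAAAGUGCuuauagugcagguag
miR-25-3p: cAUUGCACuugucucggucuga
miR-92a-3p: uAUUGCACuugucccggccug
miR-125b-5p: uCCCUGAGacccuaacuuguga
miR-125a-5p: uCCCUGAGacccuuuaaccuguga
miR-199a-3p: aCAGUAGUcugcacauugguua
miR-218-5p: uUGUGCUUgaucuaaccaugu
miR-138-5p: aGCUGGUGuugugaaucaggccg

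The miRNAs of the rodent cluster on the X chromosome are listed apart, because they made up a large share of these exosomes and are less widely known. For miR-470 both arms are given. For miR-465 the 5p arms differ between copies after the seed, and the 3p arm listed for the a, b and c copies is the same sequence.
miR-470-5p: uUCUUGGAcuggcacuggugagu
miR-470-3p: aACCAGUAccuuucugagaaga
miR-465a-5p: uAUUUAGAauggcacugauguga
miR-465b-5p: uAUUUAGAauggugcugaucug
miR-465c-5p: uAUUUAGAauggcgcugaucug
miR-465c-3p: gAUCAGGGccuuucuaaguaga

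The summed counts were 972344, 1393282 and 1313328 in replicates 1, 2 and 3, and 828, 861 and 878 rows had at least 1 count. These sums count assignments of reads to rows, and rows with identical or nearly identical counts, described below, each enter them. A level is given as CPM, counts per 1000000 of the summed counts of a library. Levels were not divided by length, because a mature miRNA is about 22 bases long and is read whole, and differences between miRNAs in the ease of ligation were not tested. In replicates 1, 2 and 3 a count of 3 stood for 3.09, 2.15 and 2.28 CPM. Over the 3 libraries together, 0 counts allow a level of up to 0.815 CPM, which covers counting error only.

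The most abundant miRNA was miR-16, whose family is known for restraining the cell cycle and survival. Its row Mir16-1 held 70775, 74877 and 70296 CPM in replicates 1, 2 and 3, or 71983 ± 2518 CPM (SD, n = 3). The row of the second gene, Mir16-2, held nearly the same, 71701 ± 2543 CPM. Mir16-1 lies at chr14:61631880-61631972 (GRCm38) in an exon of the noncoding gene Dleu2, and Mir16-2 at chr3:69009902-69009996 in an intron of Smc4, which encodes a condensin subunit. Both genes have a miR-15 hairpin beside them that shares the seed, and these stood far lower. Mir15a held 2474 ± 214 CPM and Mir15b 4191 ± 336 CPM, so Mir16-1 was 29.1-fold above Mir15a (26.5- to 33.4-fold over the libraries) and Mir16-2 was 17.1-fold above Mir15b.

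let-7b came next, a member of the family that rises as cells differentiate and that represses Lin28 and Ras genes. Mirlet7b, at chr15:85707319-85707403 in an exon of the noncoding gene Lncppara, held 67712, 69210 and 65481 CPM. Its 3 values lay below all 3 of Mir16-2. Mirlet7i held 35223 CPM in replicate 1 against 44229 and 44569 CPM in replicates 2 and 3, the widest spread among the 6 highest rows (CV, the SD as a percent of the mean, 12.8%). Mirlet7c-2 and Mirlet7c-1, which give the same mature let-7c, held 20919 ± 836 and 19837 ± 786 CPM.

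Between Mirlet7b and Mir470 also stood Mir21a, Mir93, the miR-125b pair, Mir25 and the miR-199 rows. Mir21a, within an exon of Vmp1 and widely expressed in dividing cells, held 57622, 47509 and 53991 CPM. Mir93 held 47994, 53046 and 51740 CPM and Mir25 25802, 25328 and 24564 CPM, both from the Mcm7 gene, whose protein is part of the replicative helicase. Mir125b-1 and Mir125b-2, the homologs of the worm gene lin-4, held 27246 ± 2245 and 26925 ± 2255 CPM. Mir199a-2 and Mir199a-1, known from mesenchymal cells, held 23088 ± 1270 and 22962 ± 1290 CPM, and Mir199b held 19309 ± 1256 CPM.

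The rows from rank 15 to 20 were close to each other, between 12100 and 15137 CPM on the mean. They were Mir470 (15137 ± 204 CPM), Mir335 in an intron of the imprinted gene Mest (13124 CPM), Mir27b (13123 CPM), Mir741 (12752 CPM), Mir23a (12514 CPM) and Mir465c-2 (12100 CPM). Mir465c-1, at rank 21, had the same counts as Mir465c-2 in every library. Of the 19 pairs of neighbours among the 20 highest rows, 11 had overlapping ranges over the libraries. Overlap joined Mir16-1 with Mir16-2, Mir21a with Mir93, the miR-125b rows with Mir25, the miR-199a rows with each other, the let-7c rows with Mir199b, and all rows from Mir335 to Mir465c-2. Within a library the order of some of these was still the same each time, with Mir16-1 above Mir16-2, Mir125b-1 above Mir125b-2, Mir199a-2 above Mir199a-1 and Mirlet7c-2 above Mirlet7c-1 in all 3 libraries. The 10 highest rows were the same in every library, and 17 rows were among the 20 highest in all 3.

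**Figure D1:**
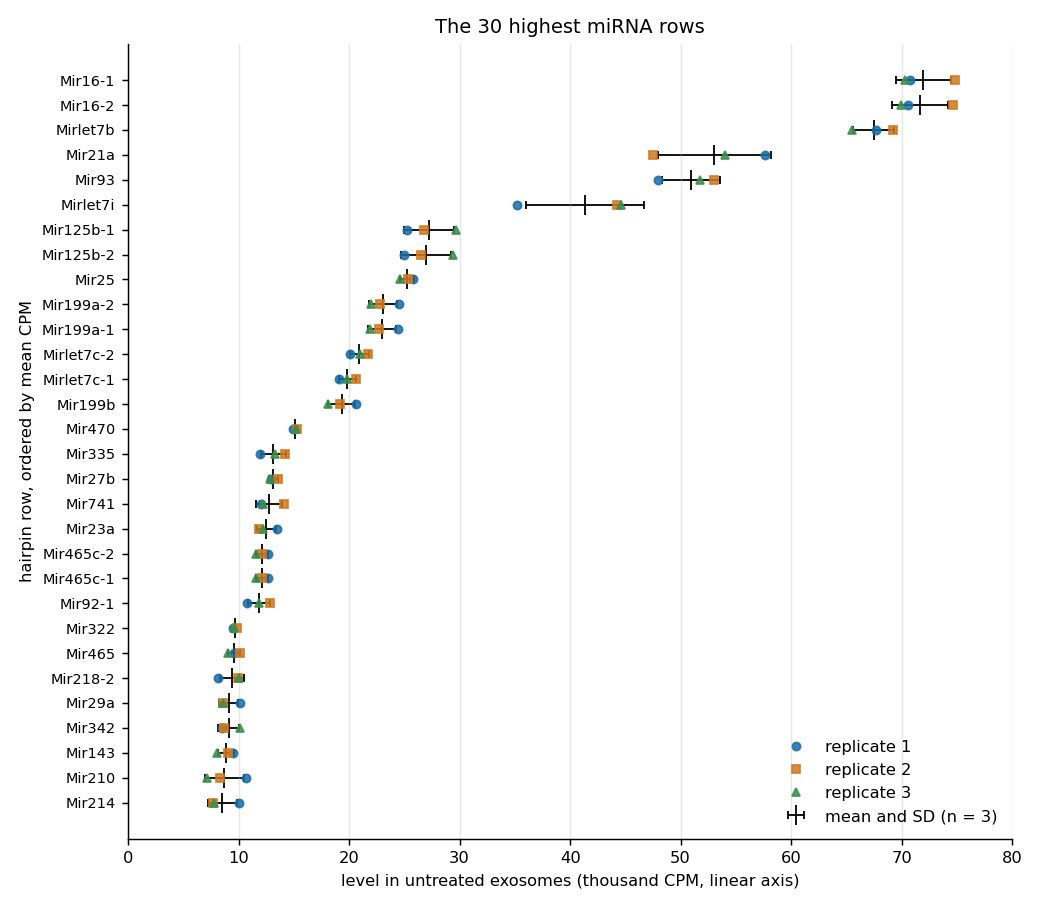
Levels of the 30 highest rows in units of 1000 CPM on a linear axis, with a point for each of the 3 untreated libraries and a bar for the mean and SD. The 2 miR-16 rows and Mirlet7b stand apart at 67468 CPM and above, and the ranges of neighbours overlap from Mir335 to Mir465c-2.

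The cargo was concentrated in few rows. The highest row held 7.08, 7.49 and 7.03% of the counts of replicates 1, 2 and 3, the 10 highest rows 45.9 ± 0.759% (SD, n = 3) and the 100 highest rows 94.1 ± 0.283%. It took 12 or 13 rows to reach 50% of the counts of a library and 74 to 78 rows to reach 90%. The effective number of rows, the exponential of the Shannon entropy, which is the number of equally filled rows with the same evenness, was 67.0 ± 1.65. By mean level, 22 rows lay at 10000 CPM or more and held 64.5% of the counts, 82 rows between 1000 and 10000 CPM held 30.0%, and 110 rows between 100 and 1000 CPM held 4.84%. The other 762 rows with a count shared 0.657%. Mir16-1 stood 64.1-fold above the row of rank 100, which had 1123 CPM.

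**Figure D2:**
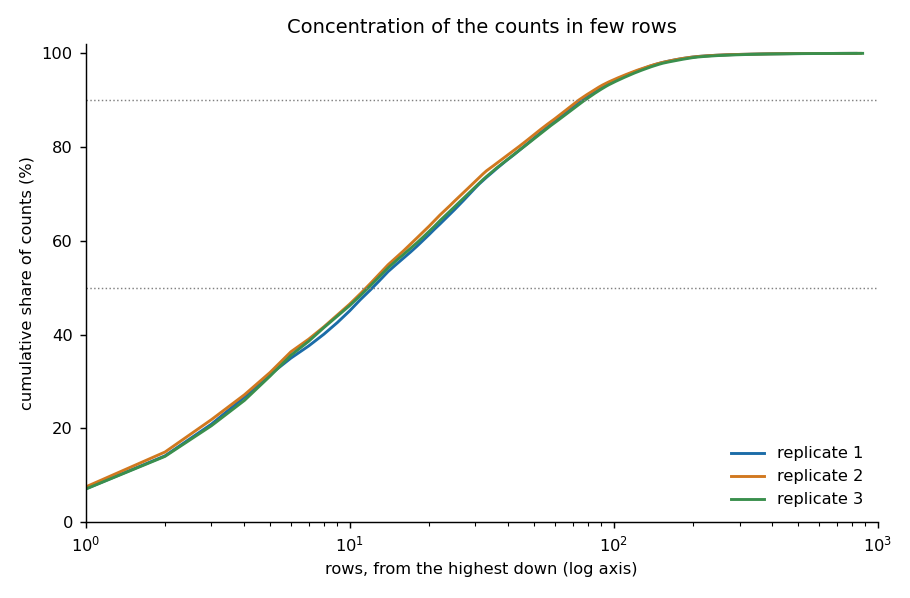
Cumulative share of counts (%) over the rows of each untreated library, from the highest down on a log axis. The curves of the 3 libraries lie close together and cross the dotted lines at 50% after 12 or 13 rows and at 90% after 74 to 78 rows.

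Part of this concentration depends on how copies of a miRNA were counted. Among the rows of at least 100 CPM, 32 pairs share an identical mature sequence, and reads of that sequence alone cannot be assigned to either row. In 15 of these pairs the counts differed by 5% or less in every library. The counting mode named in the methods by default leaves out reads that map to several places, so what the large, nearly equal counts of such rows stand for is not known. The miR-16 pair differed by at most 0.559%, the miR-199a pair by 0.694%, the miR-125b pair by 1.39% and the miR-26a pair by 0.166%. Mir465c-1 and Mir465c-2, Mir465b-1 and Mir465b-2, and the group Mir344d-1, Mir344d-2 and Gm23490 had identical counts. Copies outside that limit ranged from close to far apart. Mirlet7c-1 and Mirlet7c-2 differed 1.05-fold on the mean, Mir138-1 and Mir138-2 1.16-fold, and Mir199a-1 and Mir199b 1.19-fold. Mir92-1 held 11826 ± 1028 CPM and Mir92-2 516 ± 24.8 CPM, although both give miR-92a-3p, and Mir218-2 held 2.46-fold the level of Mir218-1. When rows with counts within 5% and 18 shared bases were joined, 43 rows became 19, which removed 15.99% of the counts. The highest joined row, miR-16, then held 8.55 ± 0.318% of the counts, and let-7b followed at 80306 ± 2382 CPM against 85513 ± 3179 CPM for miR-16. The 10 highest joined rows held 47.8% and the effective number was 62.9.

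By family, 32.4% of the counts belonged to the let-7 and miR-15/16 families. Families were lists of names, and the mature miRNA listed for a few rows has another seed, such as Mir497b with 739 CPM. Mir497b lies on the strand opposite Mir497, which has no row here, and reads of this row and of its partner cannot be told apart. The 10 let-7 rows listed, miR-98 included, held 15.4, 16.8 and 16.5% in replicates 1, 2 and 3 (16.2 ± 0.768%), with a count for every listed row in every library. Among these 10 rows the levels ran from Mirlet7b down to Mirlet7f-2 with 1468 ± 114 CPM, a span of 45.9-fold. Mirlet7e and Mirlet7f-1 had no row under their own names. The rows opposite them, Gm25927 (873 CPM) and Gm24111 (1575 CPM), were not in the list. The 8 rows of the miR-15/16 family, with miR-195, miR-322 and miR-497, held 16.01, 16.7 and 15.8% (16.2 ± 0.484%), most of it on the miR-16 rows. Mir322, the mouse counterpart of human miR-424, followed with 9619 ± 177 CPM, and Mir195b had no count. These shares overlapped between the families in the table as deposited. With copies joined, let-7 held 19.3 ± 0.933% and the miR-15/16 family 10.7 ± 0.298%, and their ranges over the libraries did not overlap. A joined row took the mean count of its copies, which applied to the miR-16 pair. The let-7c rows, outside the 5% limit, stayed separate, so these shares depend on that rule.

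Next came miR-199 (6.54 ± 0.381%), miR-125 with miR-351 (6.38 ± 0.577%) and the miR-17 family with miR-20, miR-93 and miR-106 (6.27 ± 0.135%). Together with let-7 and miR-15/16 they made up 50.3, 52.6 and 51.8% of the counts in replicates 1, 2 and 3. With copies joined the order of these families changed, to 7.46 ± 0.167% for miR-17, 5.04 ± 0.303% for miR-199, 4.53 ± 0.122% for the miR-25 family and 4.37 ± 0.414% for miR-125. As deposited, the miR-465 family held 4.20 ± 0.129% and the miR-25 family with miR-92 held 3.81 ± 0.0954%. Of the 35 families listed, 12 held more than 1%. Others that are known for a strong role in particular cells were minor, such as miR-181 at 0.129% and miR-10, whose genes lie in the Hox clusters, at 0.00889%.

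Sums were also taken by seed, over rows matched by symbol to a RefSeq sequence, and copies each entered them. Arms without a sequence were left out, so Mirlet7a-2 is missing from the let-7 5p seed and Mir465b-1 from the miR-465 5p seed. Among the rows of at least 100 CPM with a sequence, 6 rows with 161075 CPM in sum hold a mature miRNA with the seed AGCAGCA, and 9 rows with 160118 CPM one with GAGGUAG. The seeds CAGUAGU (65359 CPM), CCCUGAG (63800 CPM), AAAGUGC (62676 CPM), AUUGCAC (38071 CPM) and AUUUAGA (37870 CPM) followed among the arms shown above.

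Levels within a genomic cluster, where hairpins are cut from a shared transcript, were uneven. In the 3 hairpins of Mcm7, Mir93 stood 2.02-fold above Mir25 and 25.02-fold above Mir106b, which held 2035 ± 137 CPM. In the miR-17-92 cluster on chromosome 14, the polycistron first known as an oncogene, Mir92-1 held 10.8-fold the level of Mir17 (1090 ± 173 CPM) and 23.3-fold that of Mir19a (506 ± 22.7 CPM). This cluster and its paralogs held 10.4 ± 0.192% of all counts in 15 rows, and all 15 had a count in every library. In the paralog on the X chromosome Mir19b-2 held 930.5 CPM, nearly the same as Mir19b-1, Mir92-2 held 516 CPM and Mir20b 213 CPM. Mir19b-2 shares miR-19b-3p with Mir19b-1, and Mir92-2 shares miR-92a-3p with Mir92-1. The levels of Mir19b-2 and Mir92-2 may therefore not be those of the X paralog alone. Mir106a, Mir363 and Mir18b of this paralog were low at 31.2, 11.6 and 9.66 CPM. The let-7c/miR-99a/miR-125b clusters held 8.87 ± 0.618%. In these Mirlet7c-1 stood 59.7-fold above Mir99a (332 ± 71.0 CPM), and Mir125b-1 37.4-fold above Mir100 (729 CPM). Mir92-1, Mirlet7c-1 and Mir125b-1 share a mature sequence with a row outside their own cluster. Their folds compare rows and may not be those of hairpins from a shared transcript.

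Another large cluster lay on the X chromosome. At chrX:66776757-66839125, 62369 bases between the protein-coding genes Slitrk2 and Gm1140 with no protein-coding gene inside, 18 hairpins of the minus strand all had more than 500 CPM on the mean, and 15 of them more than 1000 CPM. These rodent hairpins belong to the fast-evolving miR-506 group and are best known from the testis. The cluster held 9.42, 9.57 and 8.95% of the counts in replicates 1, 2 and 3 (9.32 ± 0.322%), and 9.16 ± 0.357% with copies joined. Its median row held 3436 CPM. Mir470 was highest with 14904, 15287 and 15220 CPM, Mir741 held 12004, 14098 and 12155 CPM, and the miR-465c rows 12637, 12083 and 11580 CPM. Mir465, with the miR-465a hairpin, held 9576 ± 542 CPM and Mir871 5085 ± 401 CPM. At the low end stood Mir883b with 598, 496 and 474 CPM and Mir742 with 645, 421 and 524 CPM, so the span from Mir470 to Mir883b was 29.0-fold. The median CV of the 18 rows was 6.27% and the largest, of Mir742, was 21.1%. With this cluster the X chromosome held 12.3 ± 0.279% of all counts on 6.08% of the rows, the largest share of a chromosome.

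**Figure D3:**
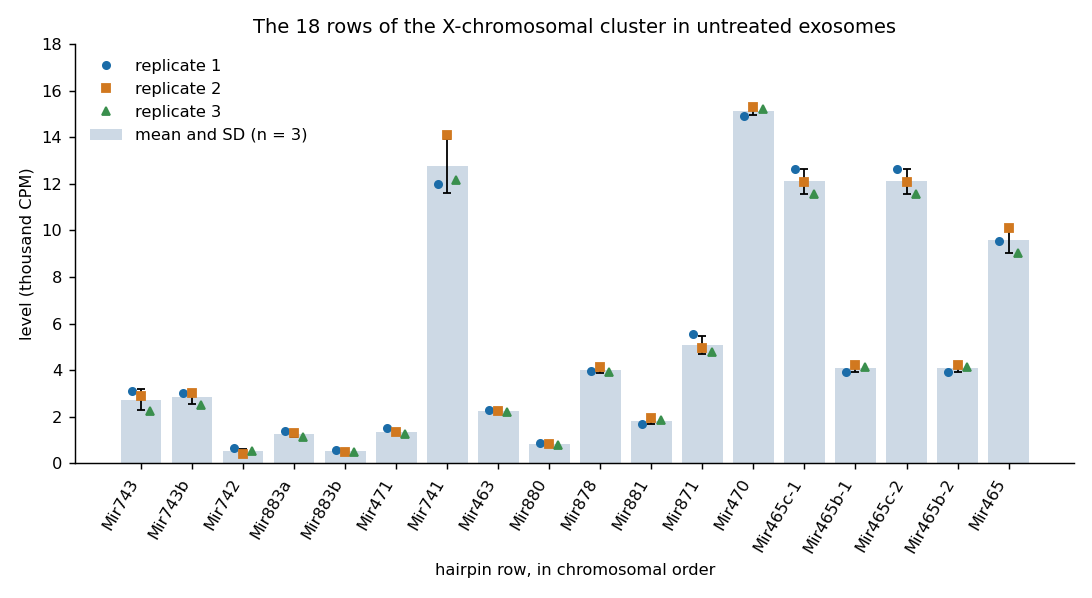
Levels of the 18 rows of the X-chromosomal cluster in units of 1000 CPM, in chromosomal order, with bars for the mean and SD and a point for each untreated library. Mir470, Mir741 and the miR-465c rows reach 12100 CPM or more, and no row falls under 421 CPM in any library.

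In 2 other large clusters most rows were low, with median rows of 4.49 CPM (Sfmbt2) and 5.51 CPM (Dlk1-Dio3). The repeated miR-466, miR-467, miR-669 and miR-297 hairpins, most of which lie in an intron of Sfmbt2, held 0.497 ± 0.00702% of the counts in 69 rows, and Mir669c alone (3621 ± 79.7 CPM) made up 72.9% of that. Mir467e held 295 CPM, Mir466d 122 CPM and Mir467c 111 CPM, and the other 65 rows were under 100 CPM, 10 of them with no count. How reads that map to several of these repeated hairpins were counted is not known. A low or missing count may therefore not be a low level, which was not tested. The imprinted Dlk1-Dio3 domain on chromosome 12, a cluster known for its high level in brain, summed to 772, 765 and 765 CPM over 57 rows. Its highest row was Mir382 with 90.2 ± 9.53 CPM, followed by Mir541 with 82.5 CPM and Mir127 with 57.6 CPM, and 8 rows had no count.

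The line is labelled as hippocampal neurons, so miRNAs enriched in neurons were looked at together. All 26 rows of the list had a count in at least 1 library, 24 of them in all 3, and their sum was 27523, 29565 and 28645 CPM. Their levels ran over a wide range. Mir218-2, in an intron of the axon guidance gene Slit3, held 8098, 9941 and 10023 CPM, and Mir218-1 3774, 3991 and 3634 CPM. Mir138-1 held 4655, 3726 and 3727 CPM and Mir138-2 3700, 3271 and 3447 CPM; miR-138 is known for a role in dendritic spines. Mir7-1 and Mir7-2, at 2764 and 2729 CPM, differed by at most 1.39% in any library. Mir128-1 held 700 ± 18.3 CPM, Mir137 570 ± 9.47 CPM and Mir132, which neuronal activity induces, 222.0 ± 14.4 CPM. Mir128-2, Mir384 and Mir488 filled the range below Mir137, with 368, 132 and 85.3 CPM.

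miR-9 and miR-124, known for a part in neuronal differentiation, had no row at 100 CPM or more. The 3 miR-124 rows, Mir124a-1, Mir124a-2 and Mir124a-3, had the same 21, 28 and 26 counts in replicates 1, 2 and 3, which is 20.5 ± 0.965 CPM. Mir9-3 held 66.8, 73.9 and 67.0 CPM, so Mir218-2 stood 135-fold above it and 456-fold above Mir124a-3. Mir9-2 held 69.0 CPM on the mean. Mir9-1 had no row, and Gm25641 on the strand opposite it held 70.0 CPM. Mir134 held 22.7 ± 2.80 CPM, Mir153 28.3 ± 2.23 CPM, Mir129-2 11.03 CPM and Mir129-1 7.93 CPM. Mir383 and Mir873a had 1 count each in all, under the level of 0.815 CPM that 0 counts allow. In all, 11 of the 26 rows reached 100 CPM. The glial list was also low, with Mir338 at 165 ± 10.7 CPM and Mir219a-1, of oligodendrocytes, at 38.0 ± 3.11 CPM.

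Some markers of other tissues stood at levels similar to those of miR-9 and miR-124, and their source was not tested. Mir122, the liver miRNA, held 53.5, 62.4 and 57.9 CPM. The muscle list summed to 239 to 273 CPM, with Mir1b at 60.4 CPM, Mir499 at 59.7 CPM and Mir1a-1 at 56.3 CPM, while Mir208a of heart muscle had no count. Blood cell miRNAs, which serum carries, were also found, with a count in every library for all but Mir155 of the 2 blood cell lists. Mir486 of red blood cells held 290, 240 and 295 CPM, Mir451a 37.7 ± 6.99 CPM and Mir144 11.3 CPM. Of the 5 white cell and platelet rows matched by name, 99.3% of the sum stood on Mir342 (9087 ± 918 CPM). It lies in an intron of Evl and is not limited to blood cells. Without Mir342 these rows summed to 62.7 ± 2.06 CPM, with Mir142b at 26.9 CPM, Mir223 at 21.02 CPM, Mir150 at 14.2 CPM and Mir155 at 0.493 CPM. The list also held miR-146a, but its row is named Mir146 and was not matched. Mir146 held 486 ± 3.42 CPM. Mir126a of endothelial cells held 1016 ± 48.7 CPM. Several of these rows lie on the strand opposite another miRNA gene. Mir142b lies opposite Mir142, Mir1b opposite Mir1a-2, Mir486 opposite Mir3107, Mir451a opposite Mir451b and Mir126a opposite Mir126b. These partners had no row here, so reads of such a row and of its partner cannot be told apart.

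Mesenchymal miRNAs were among the highest of the cargo. The 7 rows of the smooth muscle and mesenchyme list summed to 89969, 82248 and 78651 CPM in replicates 1, 2 and 3. This was 8.36 ± 0.578% of the counts, and 7.21 ± 0.537% with copies joined. Mir199a-2, Mir199a-1 and Mir199b were each highest in replicate 1. Mir143 held 8843 ± 759 CPM, Mir214 8518 ± 1317 CPM and Mir145a 898 ± 73.9 CPM. Mir143 and Mir145a come from the same transcript and were 9.84-fold apart. Mir214 lies beside Mir199a-2 in Dnm3os, an antisense transcript of Dnm3, and stood 2.71-fold below it. The mature miRNAs of Mir199a-2 are also those of Mir199a-1, so this fold too compares rows.

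Epithelial miRNAs split by cluster. Mir183, Mir182 and Mir96, a cluster of sensory and epithelial cells, held 1216 ± 94.6, 881 ± 43.3 and 289 ± 29.5 CPM, and Mir203 held 788 ± 41.8 CPM. Of the miR-200 family, the cluster of Mir200a, Mir200b and Mir429 held 361, 298 and 268 CPM, whereas Mir200c and Mir141, which form the other cluster, held 2.42 and 3.10 CPM. Mir200b was 123-fold above Mir200c, which had 2, 3 and 4 counts. Mir205 had 4 counts over the 3 libraries.

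The miRNAs of pluripotent cells were nearly absent at this depth. The 12 rows of the miR-290 and miR-302 clusters summed to 4.11, 2.87 and 3.05 CPM. Mir302a, Mir302b, Mir302c, Mir302d, Mir367 and Mir291b had 0 counts in the 3 libraries, and the highest, Mir295, held 1.08 CPM. The pancreas list was similar, with Mir375 at 7.12 ± 1.79 CPM, Mir216a at 0.836 CPM, and no count for Mir217 and Mir216b. Among the ciliated cell and testis miRNAs outside the X cluster, Mir34c held 3931 ± 353 CPM, Mir34b 1083 ± 26.2 CPM and Mir449a 281 ± 19.6 CPM, and Mir449b had no count. Over the 13 marker lists, 10 of 107 rows had no count in any untreated library.

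**Figure D4:**
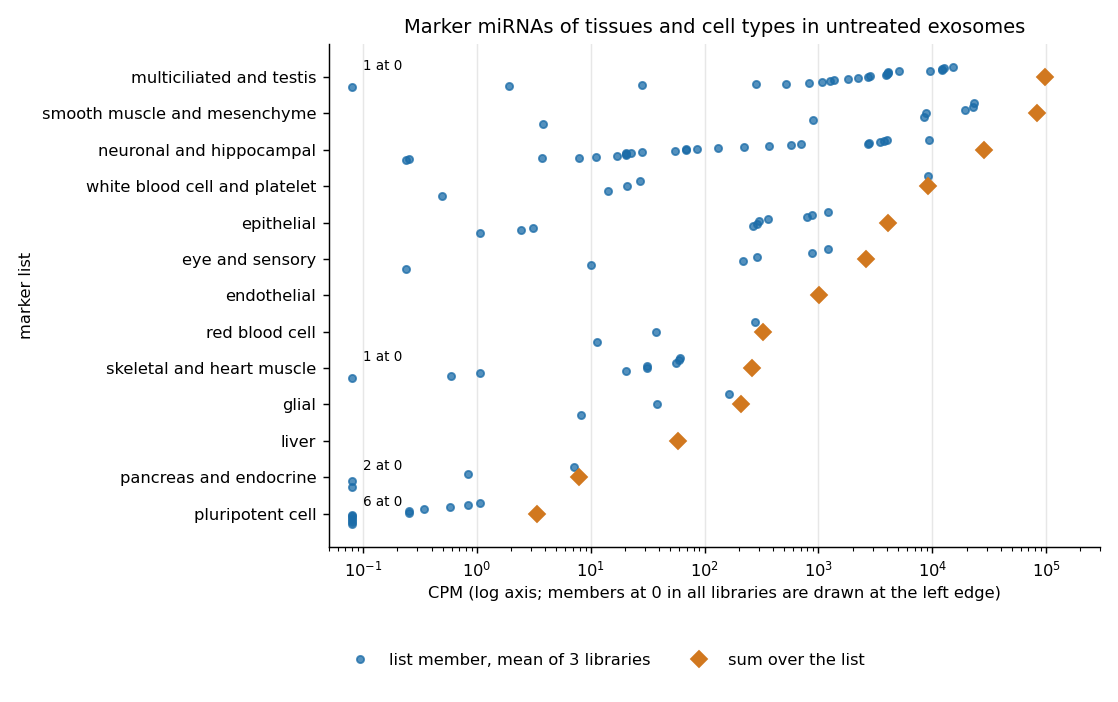
Mean CPM of every row of the 13 marker lists (circles, log axis) and the sum of each list (diamonds), with rows that had no count drawn at the left edge. The liver and endothelial lists hold a single row, which lies under the diamond. The sums run from 3.34 CPM for the pluripotent list to 97950 CPM for the ciliated cell and testis list. That list includes the rows of the X cluster except Mir742.

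Of all rows, 997 (50.5%) had no count, 744 had a count in all 3 libraries, 103 in exactly 2 and 129 in exactly 1. No row that was missing from a library exceeded 2.47 CPM on the mean. Low miRNA numbers, given to those found early, went with detection. Of the 351 rows numbered 1 to 500, 84.3% had a count in every library and 163 reached 100 CPM. Of the 421 rows numbered above 4000, 43.2% had a count in every library and 7 reached 100 CPM, and of the 922 rows without a number, most of them Gm rows, 12.3% had a count in every library.

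Several rows without a common name were abundant, and their positions bear on how they are read. Gm24083 held 4503, 4693 and 4463 CPM and lies on the strand opposite the widely expressed Mir191. Gm25301 (3315 ± 337 CPM) lies opposite Mir378a, Gm24111 (1575 ± 175 CPM) opposite Mirlet7f-1 and Gm25927 (873 ± 50.1 CPM) opposite Mirlet7e. Mir3074-1, opposite Mir24-1, held 5743 ± 463 CPM and differed from Mir24-2 (5830 ± 475 CPM) by at most 1.92% in any library. Altogether 32 rows overlap a miRNA gene of the other strand, 11 of them at 100 CPM or more, and they held 2.54% of the counts. None of Mir191, Mir378a, Mirlet7f-1, Mirlet7e and Mir24-1 was analysed here under its own name. How strand was used in counting was not stated, so reads of such a row and of its partner cannot be told apart. Of the 11 Gm rows at 100 CPM or more, the other 7 were copies of named or of each other's hairpins. Gm23490 and Gm23962 matched the miR-344d rows at 684 and 683 CPM, and Gm23935, Gm24270, Gm24245, Gm24187 and Gm25911, on 5 chromosomes, share at least 18 bases and held 119 to 258 CPM.

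The libraries agreed closely but differed by more than counting error. Over the 214 rows of at least 100 CPM, which held 99.3% of the counts, the median absolute log2 ratio was 0.14 between replicates 1 and 2, 0.13 between 1 and 3, and 0.10 between 2 and 3. Replicates 2 and 3 shared a lane label, and lane and library cannot be told apart here. Chi-square over its degrees of freedom was 19.8, 20.7 and 18.1 for these pairs, where counting error alone gives about 1, so no library was another one deposited again. The median CV of the 214 rows was 7.54%. With replicate 1 left out it was 4.53%. The edgeR estimate of the common biological coefficient of variation was 14.0% over 551 rows. By class, the median CV was 37.3% at 1 to 10 CPM, where counting alone gives 58.7%. It fell to 8.50% at 100 to 1000 CPM, where counting gives 5.04%, and to 5.33% at 10000 CPM or more, where counting gives 0.618%. The counting value is the root of the mean inverse count of a row, with zeros left out. At low counts a CV over 3 values tends to lie below it, so such rows are not shown to be steadier than counting allows.

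The steadiest rows were Mir27a (3005, 2988 and 2975 CPM, CV 0.507%), Mir365-1 (CV 0.606%), Mir421 (CV 0.660%), Mir30e (CV 0.680%) and Mir146 (CV 0.703%). All 5 CVs were below the counting error of their own rows, which was 1.67% for Mir27a and 3.12 to 5.13% for the others. These rows were picked as the lowest of the 214.

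The widest rows were Mir6970 (79.2, 73.9 and 228 CPM, CV 68.8%), Mir6923 (363, 266 and 918 CPM, CV 68.2%), Mir7070 (72.0, 99.05 and 241 CPM, CV 66.2%), Mir877 (674, 590 and 1511 CPM, CV 55.1%) and Mir1981 (394, 395 and 805 CPM, CV 44.6%). In each of them replicate 3 was highest. Mir6970 lies in an exon of Skiv2l and the others in introns of Myh3, Fbxw9, Abcf1 and Marc2, all on the strand of the host gene, and miR-877 is known as a mirtron, a hairpin released by splicing. Of the 26 rows with a CV of 20% or more, 17 were highest in replicate 3, 7 in replicate 2 and 2 in replicate 1, and together they held 2.46% of the counts. Of all 214 rows, 67 were highest in replicate 3, 54 in replicate 2 and 93 in replicate 1. The median GC content of the hairpin was 56.1% for these rows and 49.3% for all 214. Across the 214 rows, which share the same libraries, the log2 ratio of replicate 3 to replicate 2 had a Pearson r of 0.445 with the GC content of the hairpin, that of replicate 2 to replicate 1 an r of -0.261, and that of replicate 3 to replicate 1 an r of 0.265, given as a description. The part of base composition in the spread was not tested.

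All 6 miR-181 rows were highest in replicate 2, against 54 of the 214 rows. Some of them are copies, since Mir181a-1 and Mir181a-2 give the same mature miRNA, as do Mir181b-1 and Mir181b-2, so these are not 6 separate observations. Mir181d held 183, 347 and 212 CPM and Mir181a-2 217, 313 and 227 CPM, with replicate 2 above both other libraries. Mir98, of the let-7 seed, held 1028, 1764 and 2347 CPM (CV 38.6%), and Mir18 held 1122, 940 and 1956 CPM (CV 40.5%). Among the abundant rows, Mir210, which hypoxia induces, held 10638, 8311 and 7157 CPM and Mir296 4483, 3460 and 5229 CPM, with CVs of 20.4 and 20.2%.

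**Figure D5:**
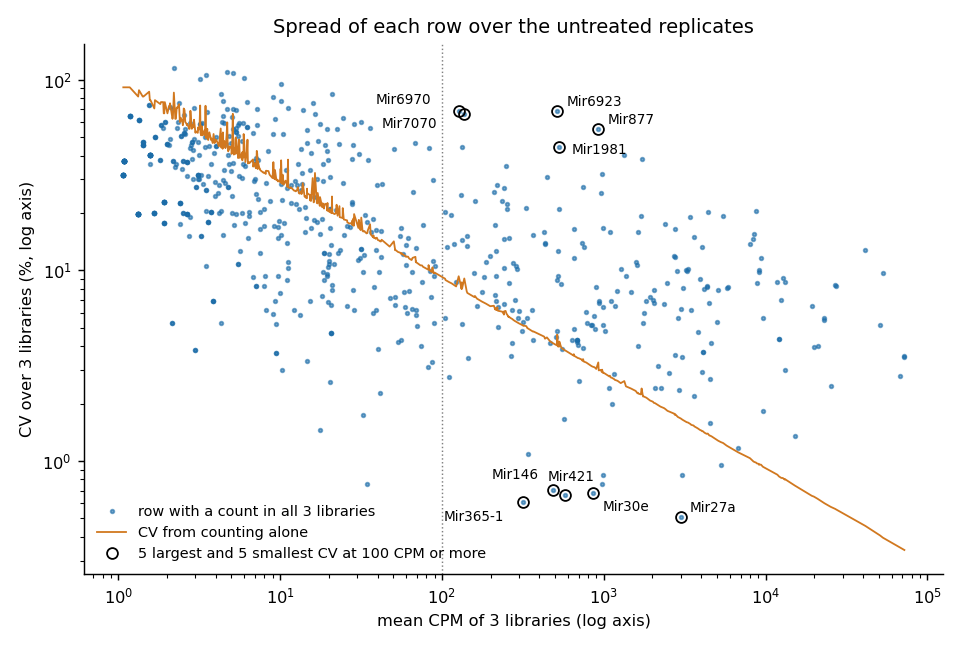
CV over the 3 untreated libraries (%) against mean CPM, both on log axes, for rows of at least 1 CPM with a count in every library; the line is the CV from counting alone. Below 10 CPM most rows lie under the line, and at 10000 CPM or more all 22 lie above it.

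The mature sequences of the abundant rows were described beside those of the other rows. RefSeq gave sequences for 916 rows and for 189 of the 214 rows of at least 100 CPM. The median length was 22 bases in all classes. The median GC content of the mature miRNAs was 47.6% in rows of at least 100 CPM, 54.5% in rows above 0 and under 100 CPM, and 52.9% in rows with no count. Short motifs have been described in miRNAs sorted into exosomes of other cells, and 3 of them were searched on the miRNA strand only. GGAG was found in 22 of the 189 abundant rows (11.6%), against 137 of 494 rows (27.7%) under 100 CPM and 23.4% of all rows with a sequence. GGCU was found in 40 abundant rows (21.2%) against 21.7% of all rows. CGGGAG, which contains GGAG, was found in 0 of the 189 and in 0.764% of all rows. The highest rows with GGAG were Mir125b-1, Mir25 and Mir125a, and the motif lies in the arm not shown above (miR-125b-1-3p, miR-25-5p and miR-125a-3p). The rows do not separate the arms, so the share of reads with the motif is not known.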

How the data were processed

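Small RNA of exosomes was measured in 3 untreated libraries. The authors trimmed adapters with cutadapt 1.15, summarised read quality with MultiQC 1.4, mapped reads to GRCm38 with STAR 2.5.3a in its GeneCounts mode and deposited a table of unnormalised counts per miRNA gene and library. Which GENCODE release was used, and how strand, reads with several matching genes and the kit's molecular identifiers were treated, is not given in the sources used here. A count can therefore stand for a read or for a molecule, and intervals cover counting error only.

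Counts were divided by the summed counts of the library (972344 to 1393282) and multiplied by 1000000 to give CPM. Names and coordinates came from GENCODE M21 (1894 of 1973 rows matched; the highest summed count of the others was 21), and sequences from RefSeq, GRCm38.p6, matched by symbol. Rows were joined where counts differed by 5% or less in every library and 18 bases were shared on either strand. A joined row took the mean count of its copies. Groups came from the labels. Everything is a description of 1 group, with no test. TMM factors and the biological coefficient of variation came from edgeR 4.0.16, size factors from DESeq2 1.42.0 and the rest from Python 3.11.15. The procedures were tested on simulated data. Rows were named by rule: the 20 highest, the 3 highest of each family or cluster, up to 4 highest and those at 0 of each marker list, the 5 largest and 5 smallest CVs, and identical rows and Gm rows of at least 100 CPM. Other rows named (such as Mir98, Mir18, Mir181d, Mir181a-2, Mir210, Mir296 and further list members) were chosen after their values were seen. Members, lists and rules were chosen with earlier results of these data known. Alternatives were other scalings, joining of rows, filters, detection limits and leaving out each library.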

Additional observations from a re-analysis of the deposited data

How the results depend on the processing

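No paired analysis was possible because all results are descriptions of 1 group and come from no test. Joining rows moved the shares most. With rows of near-equal counts joined, the top row held 8.97% of the counts, the top 10 rows 50.1%, let-7 20.2%, and the effective number of rows was 56.1. With rows that share a mature sequence joined, these values were 9.43%, 50.9%, 17.5% and 57.9. With near-equal counts and 18 shared bases, a setting chosen after seeing the data because near-equal counts alone also join unrelated rows, they were 8.55%, 47.8%, 19.3% and 62.9. Requiring 10 counts in each library left 368 rows, against 744 with 1 count. Leaving out each library in turn gave a median CV of 4.53 to 6.67% against 7.54% with all 3, the lowest without replicate 1; a CV over 2 values tends to be lower. The other summary values moved by less than their spread over libraries, or by less than 1.5 times for counts of rows. Of the CPM values of the 20 highest rows, 60 of 200 alternatives moved past 1 SD, all through joining, by at most 1.48-fold (Mir199b). The depth limits rows under about 3 CPM, which 3 counts stand for.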
